A study of Homo sapiens with 8 samples.

Results

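Nuclear genes for the mitochondrial ribosome and for the machinery that imports proteins into mitochondria were followed through 24 h of hypoxia in SJRH30 cells, a human alveolar rhabdomyosarcoma line. The members were all probe sets whose only annotated gene symbol begins with MRPL, MRPS, TIMM or TOMM. They comprised 87 of the 22277 probe sets on the array and stood for 67 of 11963 genes: 31 MRPL, 20 MRPS, 11 TIMM and 5 TOMM genes. No pseudogene had to be left out, and 5 further probe sets that carry such a symbol together with another (those of TIMM23, TOMM7 and TOMM6 among them) were not analysed here. The 4 groups were cells before hypoxia (0 h) and cells kept for 6, 12 or 24 h in a chamber at 1% oxygen, with 2 arrays each. All groups are the same untransfected line in serum-containing medium, and with no normal-oxygen cells of the later times analysed here, the effect of hypoxia and that of longer culture cannot be told apart. The labels call the replicates biological without saying that they were separate cultures, so p-values measure the spread between these samples, which may be in part technical.

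Mitochondria keep a small genome whose messages are read by a ribosome of their own. Its ribosomal RNAs come from that genome, but all of its proteins (MRPL genes for the large subunit, MRPS genes for the small one) are encoded in the nucleus, made in the cytosol and imported. Proteins enter through the TOM complex of the outer membrane (TOMM genes). From there the TIM23 complex takes those with a cleavable leader to the matrix, and the TIM22 complex, fed by small chaperones of the intermembrane space, inserts carrier proteins into the inner membrane (TIMM genes). The mitochondrial ribosome builds the membrane-embedded core subunits of the respiratory chain, the consumer of oxygen in the cell.

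Values are log2 expression after robust multi-array averaging (RMA), which equalises the arrays, so a change is a change against the rest of the transcripts measured. In RNA from a whole culture fewer cells of a kind and less RNA per cell cannot be told apart. Every change was tested with limma across all 11963 genes, adjusted by the Benjamini-Hochberg method, and a gene is said to have risen or fallen when its adjusted p was under 0.05. The genes that mark the muscle tumour were well expressed: MYOD1, MYOG, DES, PAX3, FGFR4, CHRNA1 and MYCN were all among the brighter 50% of genes. The leukocyte genes PTPRC (3.39 to 3.91), CD14 (4.38 to 4.8) and CD3E (5.83 to 6.11) were not. The labels name the cell type as muscle fibroblasts; of 8 fibroblast markers COL3A1 (10.66 to 11.06) and COL1A1 (8.11 to 8.45) were in the brighter 50%, and COL1A2, THY1, PDGFRB, DCN, LUM and FAP were not. Some markers moved with time. MYOG and MYCN rose by 0.31 and 0.32 and PAX3 fell by 0.26 at 24 h, MYCN rose by 0.26 at 12 h, COL3A1 rose by 0.34 and 0.22 at 6 and 12 h, and the epithelial gene EPCAM rose by 0.41 at 24 h (limma adjusted p from 0.0135 to 0.0455). None of the 3 endothelial or 3 leukocyte markers was called, and the part of these marker changes in the results was not tested. The hypoxic response was present on all treated arrays, with the mitophagy receptor gene BNIP3 raised by 2.96, 3.33 and 3.31 and the pyruvate dehydrogenase kinase gene PDK1 by 2.05, 2.32 and 2.42 on the log2 scale at 6, 12 and 24 h. The control probe sets for added poly-A transcripts were brighter on the treated arrays (mean 8.76 to 9.01 against 8.32 and 8.36 at 0 h), and the 2 arrays of 12 h had a narrower spread of values (interquartile range over genes 3.83 and 3.77, against 3.91 to 3.97 elsewhere). The part of either in the results below was not tested.

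Part of the members fell, by small amounts, and most of the calls were made at 12 and 24 h. Because 62 of the 67 genes belonged to the brighter 50% of all genes by mean level, shares over that brighter set are given beside those over all genes. At 6 h, 3 of 67 genes, or 4.48%, fell and 0 rose. Of all genes 1.22% fell and 2.32% rose, and of the brighter set 2.02% and 4.23%. An unadjusted limma p under 0.05 in either direction was reached by 18 members, or 26.9%, beside 19.2% of all genes and 28% of the brighter set. At 12 h, 29 fell, or 43.3% of the members, and 0 rose. Of all genes 11.3% fell and 7.13% rose, and of the brighter set 18% and 10%. An unadjusted limma p under 0.05 was reached by 42 members, or 62.7%, beside 33.4% of all genes and 45.2% of the brighter set. At 24 h, 24 fell and 2 rose, 35.8% of the members lower and 2.99% higher. Of all genes 9.15% fell and 8.59% rose, and of the brighter set 14.4% and 12.9%. The median change of the members was -0.08, -0.20 and -0.16 on the log2 scale at 6, 12 and 24 h, against -0.02, 0.00 and -0.01 over all genes. None of the 67 genes changed as much as 1.5-fold at any time, and the largest fall, of MRPS15 at 12 h, was 1.47-fold. Both arrays of 12 h lay below both arrays of 0 h for 56 of the 67 genes, or 83.6%, beside 34.2% of all genes and 50.8% of the brighter set. At 6 h this held for 43 genes, or 64.2% (31.6% of all genes, 37.3% of the brighter set), and at 24 h for 42, or 62.7% (32.3% and 39.8%). The moderated F-test over the 3 times called 18 of the 67 genes, 26.9% beside 16.2% of all genes and 24.6% of the brighter set, a share near that of bright genes.

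**Figure D1:**
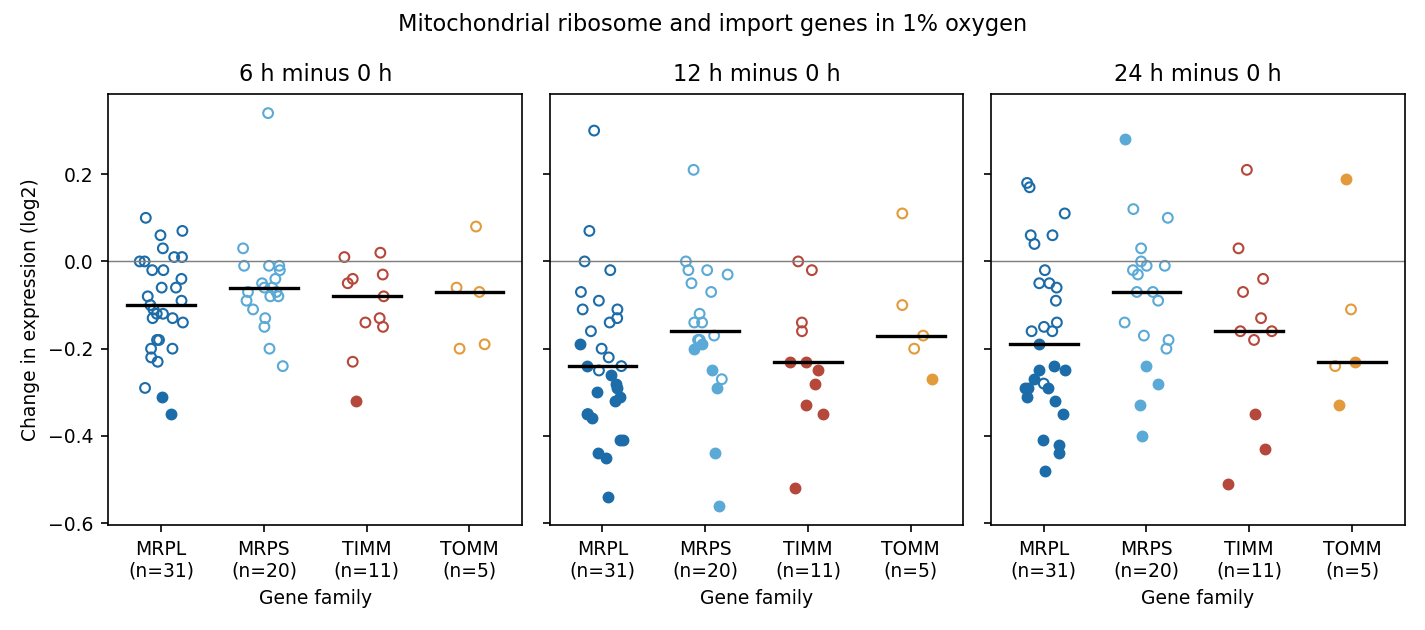
Change in expression (log2, vertical axis) of each member gene at 6, 12 and 24 h relative to 0 h, by family. Points are genes, filled where limma's adjusted p was under 0.05, and black lines are family medians; most points lie below 0, with medians at 12 h of -0.24 (MRPL), -0.16 (MRPS), -0.23 (TIMM) and -0.17 (TOMM).

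Bright genes as a class were lower at 12 h. In the brighter set the median change was -0.06 at 12 h and -0.02 at 24 h, and 18% of its genes fell at 12 h and 14.4% at 24 h. When the arrays were quantile-normalized again, the median of the brighter set at 12 h became -0.01, and the members that fell at 12 h numbered 18 in place of 29, beside 8.62% of all genes. At 24 h the same step left 24 members lower, beside 9.09% of all genes. Medians of the 4 families stayed below 0 at 6, 12 and 24 h under this scaling and with arrays centred on their medians. Leaving out either array of 0 h lowered the number of called members further: without 0 h replicate 1 or 2, ribosome genes called at 12 h went from 21 to 5 and 5, and at 24 h from 20 to 6 and 4. Import genes called went from 8 to 1 and 1 at 12 h and from 6 to 3 and 3 at 24 h. Without 12 h replicate 2, the counts at 12 h were 9 ribosome and 2 import genes, and without 12 h replicate 1 they were 18 and 4. Without 6 h replicate 1 or 2, 5 import genes were called at 12 h. At 24 h, 13 ribosome genes were called without 24 h replicate 1. The F-test called 1 and 2 members without 0 h replicate 1 or 2 and 9 and 10 without 6 h replicate 1 or 2. In each of the fits that left out 1 array, all 29 members called at 12 h and all 26 called at 24 h kept their direction.

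Means over the families were lowest at 12 h for MRPL, MRPS and TIMM genes but not for TOMM genes. The 31 MRPL genes averaged -0.10 on both arrays of 6 h relative to the mean of 0 h, -0.22 on both arrays of 12 h, and -0.19 and -0.16 on those of 24 h. The 20 MRPS genes averaged -0.06 and -0.05, then -0.17 and -0.14, then -0.11 and -0.06. The 11 TIMM genes averaged -0.09 and -0.12, then -0.22 and -0.23, then -0.19 and -0.13. The 5 TOMM genes averaged -0.07 and -0.10, then -0.12 and -0.13, then -0.19 and -0.10. For TOMM genes an array of 24 h was lowest and the other equalled an array of 6 h. The 24 h replicates stood further apart than those of other times for import genes, with a median absolute difference of 0.12 against 0.02 to 0.04 at 0, 6 and 12 h. Over all genes, too, this difference was widest at 24 h, 0.10 against 0.06 to 0.07.

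**Figure D2:**
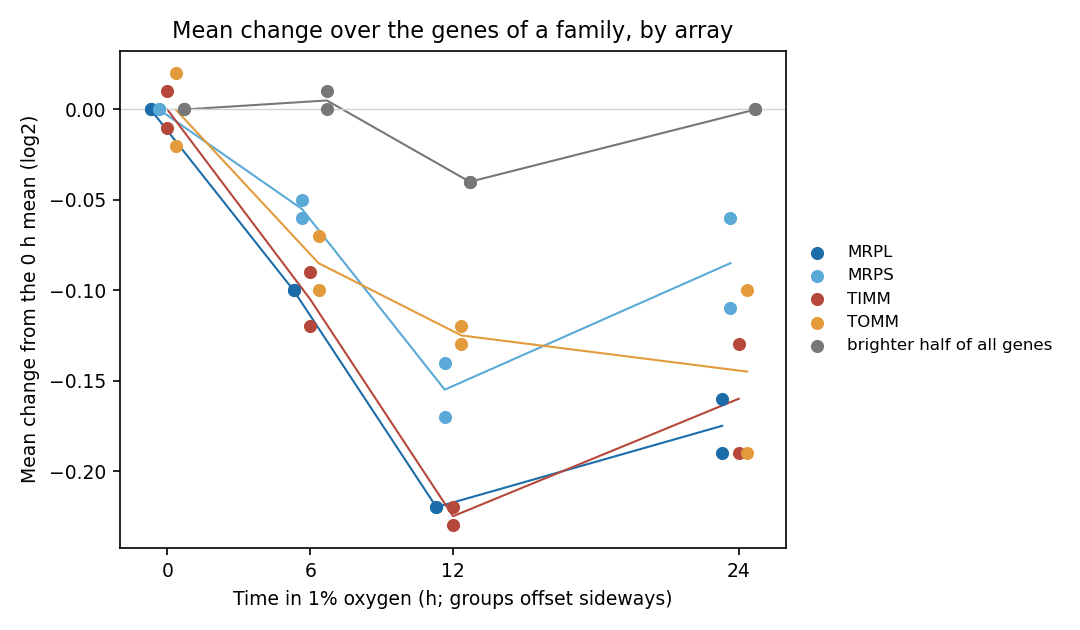
Mean change from the 0 h mean (log2, vertical axis) over the genes of each family on each of the 8 arrays, against hours in 1% oxygen. Points are arrays, shifted sideways by group for legibility, and lines join the means of the 2 arrays of a time; the 4 families lie between -0.23 and -0.12 at 12 h, where the brighter 50% of all genes lies at -0.04.

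Among large subunit genes MRPL58 changed most at 12 and 24 h, and MRPL46 at 6 h. MRPL58 encodes a peptidyl-tRNA hydrolase built into the large subunit, which can release peptides from stalled ribosomes. Its level was 8.73 and 8.76 on the arrays of 0 h, 8.38 and 8.50 at 6 h, 8.23 and 8.19 at 12 h and 8.27 and 8.25 at 24 h. All treated arrays lay below both of 0 h, and MRPL58 fell by 0.31 ± 0.06 (SE), 0.54 ± 0.06 and 0.48 ± 0.06 on the log2 scale (limma adjusted p = 0.0365, 0.00148 and 0.00189). MRPL46, a protein peculiar to the mitochondrial large subunit, read 8.96 and 8.85 at 0 h, 8.56 on both arrays of 6 h, 8.45 and 8.50 at 12 h and 8.49 on both of 24 h. It fell by 0.35 ± 0.06, 0.44 ± 0.06 and 0.42 ± 0.06 (limma adjusted p = 0.0217, 0.00326 and 0.00335), with most of the difference already present at 6 h. MRPL58 and MRPL46 were the 2 ribosome genes called at 6 h.

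Of the 31 MRPL genes, 15 fell and 0 rose at 12 h, and 15 fell and 0 rose at 24 h, 48.4% at either time beside 11.3% and 9.15% of all genes and 18% and 14.4% of the brighter set. By sign 29 lay below 0 at 12 h, where 49.5% of all genes and 61.3% of the brighter set did. MRPL15, a homologue of a bacterial large subunit protein, read 10.71 and 10.83 at 0 h, 10.65 and 10.54 at 6 h, 10.26 and 10.38 at 12 h and 10.36 on both arrays of 24 h. Its fall was 0.45 ± 0.07 at 12 h and 0.41 ± 0.07 at 24 h (limma adjusted p = 0.006 and 0.00778), 1.37-fold and 1.33-fold, and its 6 h arrays lay between. MRPL9, whose bacterial counterpart is a long protein of the large subunit, read 9.94 on both arrays of 0 h, 9.89 and 9.91 at 6 h, then 9.58 and 9.59 at 12 h and 9.63 and 9.55 at 24 h. The change of MRPL9 at 6 h was -0.04 (95% interval -0.17 to 0.09), and it fell by 0.35 at both later times (limma adjusted p = 0.00554 and 0.00494). MRPL35 went on downward, with 9.91 and 9.99 at 0 h, 9.86 and 9.84 at 6 h, 9.72 and 9.61 at 12 h and 9.54 and 9.48 at 24 h. It fell by 0.29 ± 0.06 (12 h) and 0.44 ± 0.06 (24 h) (limma adjusted p = 0.0197 and 0.00356), and is read by a probe set of the kind marked as open to cross-hybridisation.

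MRPL3, whose bacterial counterpart lies close to the site of peptide bond formation, read 12.51 and 12.53 at 0 h, 12.22 and 12.27 at 12 h and 12.20 and 12.19 at 24 h. It fell by 0.28 ± 0.05 and 0.32 ± 0.05 (limma adjusted p = 0.0121 and 0.00624). MRPL12, the stalk protein that recruits translation factors and also binds the mitochondrial RNA polymerase, read 10.83 and 10.76 at 0 h, 10.52 and 10.61 at 6 h, 10.42 and 10.35 at 12 h and 10.40 and 10.62 at 24 h. MRPL12 fell by 0.41 ± 0.08 at 12 h (limma adjusted p = 0.0152), and it was at -0.28 ± 0.08 at 24 h (adjusted p = 0.0543), where its replicates were far apart. MRPL4 and MRPL49 fell by 0.41 and 0.36 at 12 h and by 0.29 and 0.25 at 24 h.

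At 12 h 16 MRPL genes were not called, and their changes ran from -0.35 to 0.30. MRPL44, a relative of double-strand RNA nucleases, was at -0.35 (limma adjusted p = 0.0818) and MRPL2 at -0.22 (adjusted p = 0.0548). These were as large as the changes of genes that were called, but MRPL44 is read by a dim probe set open to cross-hybridisation. Its arrays lay between 5.53 and 6.16. MRPL57, a small protein found in mitochondrial but not bacterial ribosomes, lay between 11.91 and 12.04 on all 8 arrays, with a change at 12 h of 0.00 (95% interval -0.13 to 0.13). MRPL28 was at 0.07 and 0.11 at 12 and 24 h (intervals -0.05 to 0.20 and -0.01 to 0.24), and MRPL17 at 0.18 at 24 h (adjusted p = 0.127). MRPL41 had the highest change of the family at 12 h, 0.30 ± 0.13 (adjusted p = 0.148), from a dim probe set open to cross-hybridisation whose 2 arrays of 12 h read 6.26 and 6.63.

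In the small subunit family 6 of 20 MRPS genes fell at 12 h. This was 30%, beside 11.3% of all genes and 18% of the brighter set. At 24 h 4, or 20%, fell (9.15% and 14.4%) and 1, or 5%, rose (8.59% and 12.9%). At 6 h 0 of 20 were called by limma, beside 1.22% of all genes lower and 2.32% higher. An unadjusted limma p under 0.05 was reached by 3, or 15%, beside 19.2% of all genes and 28% of the brighter set. The F-test over time called 3 of the 20, or 15%, beside 16.2% of all genes and 24.6% of the brighter set. MRPS15, a homologue of a bacterial protein that binds the small ribosomal RNA early in assembly, read 9.07 and 9.14 at 0 h, 9.0 and 8.95 at 6 h, 8.48 and 8.61 at 12 h and 8.65 and 8.89 at 24 h. It fell by 0.56 ± 0.09 at 12 h (limma adjusted p = 0.00628) and by 0.33 ± 0.09 at 24 h (adjusted p = 0.0397), with both arrays of each of these times below those of 6 h. MRPS7, a protein of the head of the small subunit, read 10.65 and 10.63 at 0 h, 10.42 and 10.45 at 6 h, 10.17 and 10.22 at 12 h and 10.11 and 10.35 at 24 h. Its fall was 0.44 ± 0.08 at 12 h and 0.40 ± 0.08 at 24 h (limma adjusted p = 0.00991 and 0.0135). MRPS22, read by a probe set open to cross-hybridisation, fell by 0.20 and 0.24 at 12 and 24 h, and MRPS10 and MRPS35 fell by 0.25 and 0.19 at 12 h with adjusted p = 0.0488 and 0.0495, close to the threshold.

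MRPS18C was the ribosome gene that rose at 24 h. It is 1 of 3 human relatives of a bacterial small subunit protein, the others being MRPS18A, which sits in the large subunit, and MRPS18B. Its arrays read 7.07 and 6.95 at 0 h, 7.45 and 7.26 at 6 h, 7.22 on both at 12 h and 7.32 and 7.26 at 24 h. All treated arrays lay above both of 0 h, and MRPS18C rose by 0.28 ± 0.08 at 24 h (limma adjusted p = 0.0457), but the call was lost when any array of 0, 12 or 24 h was left out (adjusted p from 0.0507 to 0.25). At 24 h its relatives MRPS18A and MRPS18B were at 0.00 (95% interval -0.13 to 0.12) and -0.01 (-0.18 to 0.15). The other probe set of MRPS18B was at -0.19 at 24 h, not called, and fell by 0.27 at 12 h in a fit of all probe sets. MRPS12, which lines the decoding centre, read 10.18 and 10.14 at 0 h and 9.80 and 10.15 at 24 h, and passed at no time (-0.24, -0.27 and -0.18; adjusted p = 0.278, 0.118 and 0.285). MRPS17 lay between 10.50 and 10.58 on the 8 arrays and MRPS27 between 9.84 and 10.04.

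**Figure D3:**
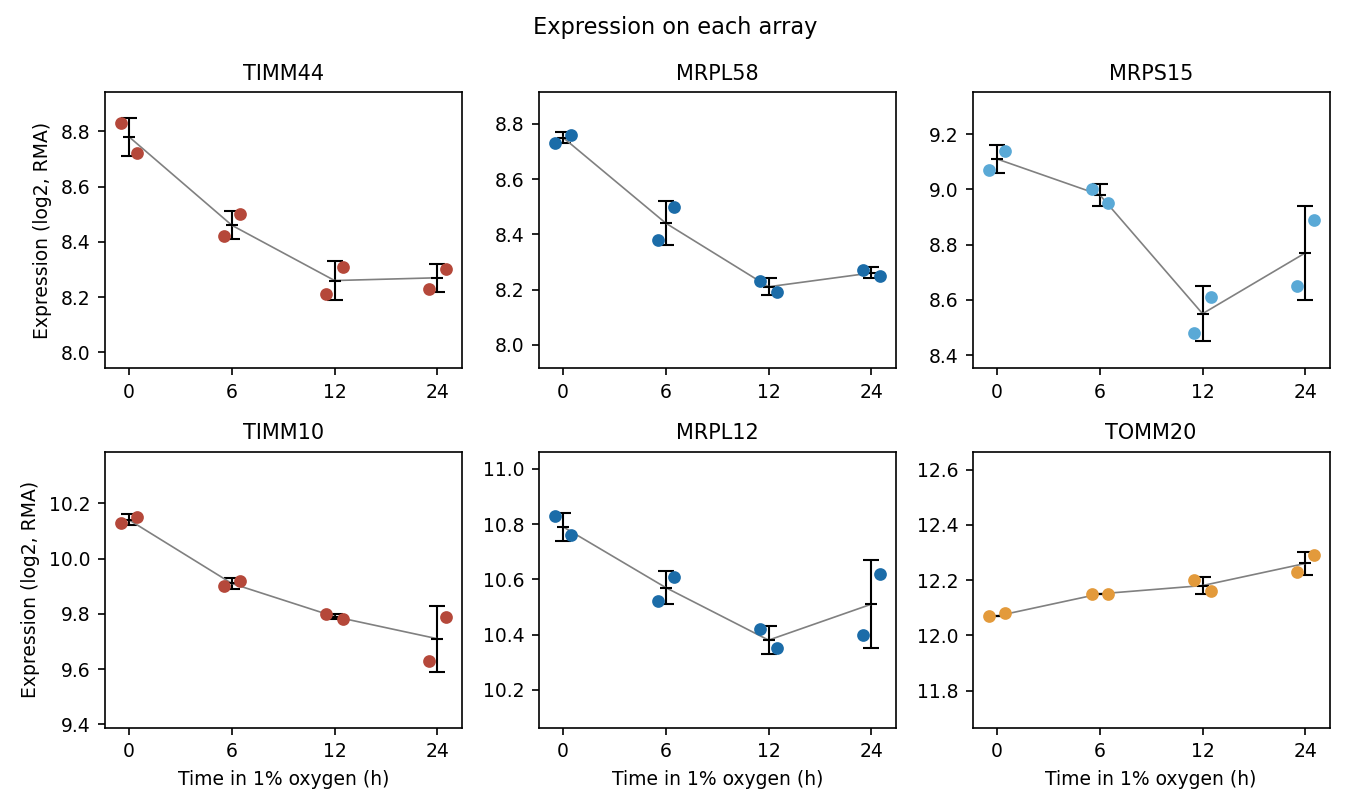
Expression (log2, vertical axis) of 6 members on each array against hours in 1% oxygen, with the times evenly spaced. Coloured points are arrays, black bars the mean ± SD of 2 arrays joined by grey lines, and every panel spans 1 log2 unit; TIMM44 and MRPL58 lie lower on all treated arrays than at 0 h, MRPS15 and MRPL12 have replicates far apart at 24 h, and TOMM20 lies higher.

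Large subunit genes had lower medians than small subunit genes, by 0.04, 0.09 and 0.12 on the log2 scale at 6, 12 and 24 h; as the genes of a family are not replicates, no test was made of this difference. Ribosomal proteins can also be divided into those with a bacterial counterpart and those that mitochondria added. Of 33 conserved proteins 11 fell at 12 h and 10 at 24 h, with medians of -0.18 and -0.09. Of 18 mitochondria-specific proteins 10 fell at 12 h and 9 at 24 h, with medians of -0.20 and -0.18. These shares were 33.3% and 30.3% for the conserved and 55.6% and 50% for the mitochondria-specific proteins. Of all genes 11.3% and 9.15% fell, and of the brighter set 18% and 14.4%. The F-test over time called 24.2% of the conserved and 33.3% of the mitochondria-specific proteins, beside 24.6% of the brighter set. The difference between the classes was not tested. MRPS30 and MRPS18A were counted here with the small subunit by their symbols, although their proteins sit in the large subunit.

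Of the import genes, 1 of 16 fell at 6 h, 8 fell and 0 rose at 12 h, and 5 fell and 1 rose at 24 h. The share that fell at 12 h was 50%, beside 11.3% of all genes and 18% of the brighter set. At 24 h 31.2% fell (9.15% and 14.4%) and 6.25% rose (8.59% and 12.9%). At 6 h 6.25% fell (1.22% and 2.02%), which is 1 gene. The F-test over time called 4, or 25%, beside 16.2% of all genes and 24.6% of the brighter set. TIMM44, the anchor that tethers the matrix chaperone motor to the TIM23 channel, was the import gene called at 6 h. Its arrays read 8.83 and 8.72 at 0 h, 8.42 and 8.50 at 6 h, 8.21 and 8.31 at 12 h and 8.23 and 8.30 at 24 h. TIMM44 fell by 0.32 ± 0.07, 0.52 ± 0.07 and 0.51 ± 0.07 (limma adjusted p = 0.0499, 0.00295 and 0.00266), or 1.25-, 1.43- and 1.42-fold. The calls at 12 and 24 h held in each fit that left out 1 array, and the call at 6 h did not. TIMM17A, a core subunit of the TIM23 channel, read 11.72 and 11.73 at 0 h, 11.60 and 11.56 at 6 h, 11.41 and 11.39 at 12 h and 11.41 and 11.35 at 24 h, and fell by 0.33 ± 0.05 and 0.35 ± 0.05 at 12 and 24 h (limma adjusted p = 0.007 and 0.00517). Its close relative TIMM17B was at -0.16 (95% interval -0.33 to 0.02) and -0.07 (-0.24 to 0.11), and TIMM50, the receptor of the same complex, at 0.00 (-0.26 to 0.26) and 0.21 (-0.04 to 0.47). The differences between TIMM17A and TIMM17B were not tested.

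Small chaperones of the intermembrane space escort hydrophobic proteins to the inner membrane. TIMM10 read 10.13 and 10.15 at 0 h, 9.90 and 9.92 at 6 h, 9.80 and 9.78 at 12 h and 9.63 and 9.79 at 24 h, with no overlap between 0 h and any later time. It fell by 0.35 ± 0.07 (12 h) and 0.43 ± 0.07 (24 h) (limma adjusted p = 0.0121 and 0.00487). TIMM9, which forms a hexamer with TIMM10, lay between 8.98 and 9.12 on all arrays, with changes of 0.02, -0.02 (95% interval -0.16 to 0.13) and 0.03 (-0.11 to 0.18). TIMM8B and TIMM10B fell at 12 h by 0.23 and 0.25 and were at -0.16 and -0.18 at 24 h (limma adjusted p = 0.0874 and 0.0989). TIMM8A, the gene of a deafness and dystonia syndrome, fell by 0.28 ± 0.08 at 12 h with an adjusted p that rounds to 0.05 and lies just under it. The other probe set of TIMM8A was at 0.04 at 12 h. In a fit of all probe sets that are not controls, neither of them was called. TIMM13, the partner of TIMM8A, was at -0.14 at 12 h (limma adjusted p = 0.216). TIMM22, the channel for carrier proteins, also read by a probe set open to cross-hybridisation, fell by 0.23 ± 0.05 at 12 h (limma adjusted p = 0.0267) and was at -0.13 at 24 h (adjusted p = 0.159).

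At the outer membrane the channel gene fell and a receptor gene rose at 24 h. TOMM40, the channel itself, read 9.31 and 9.26 at 0 h, 9.13 and 9.05 at 6 h, 8.99 and 9.04 at 12 h and 8.88 and 9.03 at 24 h, and fell by 0.27 ± 0.07 and 0.33 ± 0.07 at 12 and 24 h (limma adjusted p = 0.03 and 0.0149). TOMM20, the receptor for proteins with a leader sequence, read 12.07 and 12.08 at 0 h, 12.15 on both arrays of 6 h, 12.20 and 12.16 at 12 h and 12.23 and 12.29 at 24 h. Every treated array lay above both of 0 h, and TOMM20 rose by 0.19 ± 0.05 at 24 h (limma adjusted p = 0.0499), a call lost when any single array was left out (adjusted p from 0.059 to 0.202). TOMM70, the receptor for carrier proteins, read 11.64 and 11.63 at 0 h and 11.42 and 11.39 at 24 h, and fell by 0.23 ± 0.05 at that time (adjusted p = 0.0225). The central receptor TOMM22 was at -0.10 and -0.11 at 12 and 24 h (intervals -0.25 to 0.05 and -0.26 to 0.05). TOMM34, a cytosolic co-chaperone, was at -0.20 and -0.24 (limma adjusted p = 0.0848 and 0.052).

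Set side by side, the ribosome and the import genes gave medians close to each other. The median change was -0.08 for the 51 ribosome genes and -0.07 for the 16 import genes at 6 h, -0.19 and -0.21 at 12 h, and -0.15 and -0.16 at 24 h. The ribosome median minus the import median was 0.00, 0.02 and 0.01, where the spread of this difference between replicate arrays was 0.023 (SD pooled over the times). At 12 h 41.2% of the ribosome genes and 50% of the import genes fell, and at 24 h 37.3% and 31.2%. Of all genes 11.3% and 9.15% fell at these times, and of the brighter set 18% and 14.4%. Both groups held genes that hardly moved beside genes that fell, with quartiles of the change at 12 h of -0.30 and -0.10 for the ribosome and -0.28 and -0.13 for import.

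Between hypoxic times few members passed. From 6 to 12 h 0 of 67 were called by limma, beside 0.201% of all genes. An unadjusted limma p under 0.05 was reached by 21 members, or 31.3%, beside 22% of all genes and 23% of the brighter set. By sign 60, or 89.6%, lay lower at 12 h, beside 50.3% of all genes and 66.4% of the brighter set. The median of the members was -0.11. From 12 to 24 h 0 were called by limma, beside 0.242% of all genes. Only 3 members, or 4.48%, had an unadjusted limma p under 0.05, beside 17.4% of all genes and 17.5% of the brighter set. By sign 52, or 77.6%, lay higher at 24 h, beside 50.5% of all genes and 63.6% of the brighter set. Here the median was 0.06. From 6 to 24 h MRPL35 fell by 0.34 (limma adjusted p = 0.0397) and MRPL9 by 0.31 (adjusted p = 0.0322). These were 2 of 67, or 2.99%, beside 0.936% of all genes and 1.54% of the brighter set lower. For import, 0 of 16 genes were called. An unadjusted limma p under 0.05 was reached by 4, or 25%, beside 19% of all genes and 24.8% of the brighter set.

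Several probe sets measured 15 of the member genes, and these were compared in a fit of all 22215 probe sets that are not controls. In it 30 of the 87 member probe sets fell and 1 rose at 12 h (9.85% and 6.36% of all probe sets), and 25 fell and 3 rose at 24 h (7.8% and 6.86%). The probe sets of MRPL9 fell alike at 24 h, by 0.35 and 0.34, and those of TIMM44 by 0.51 and 0.32. Of 4 probe sets for TIMM17A the 2 bright ones fell at 24 h, by 0.35 and 0.39, and a dim one read 2.93 to 3.14 on all arrays. By sign 3 of the 4 lay below 0 and 1 above it at each of 6, 12 and 24 h. The highest change was 0.08, 0.16 and 0.09, and 0 were called higher. For TOMM20 the second probe set read 9.93 and 9.86 at 0 h and 10.10 and 10.22 at 24 h, and rose by 0.27 (limma adjusted p = 0.0345 in this fit).

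Probe sets of MRPS30 were called in opposite directions at 24 h. The brighter read 10.46 and 10.51 at 0 h and 10.26 and 10.15 at 24 h and fell by 0.28 (limma adjusted p = 0.0273), while the other read 7.67 and 7.65 at 0 h and 8.07 and 7.98 at 24 h and rose by 0.36 (adjusted p = 0.0239). The direction given for MRPS30 thus depends on the probe set, and which transcripts each detects was not examined. A dim probe set of MRPS14 rose by 0.46 at 24 h (limma adjusted p = 0.0165) where the bright one was at -0.09, and 1 of 4 for MRPS12 rose by 0.30 at 12 h (adjusted p = 0.028) where the brightest was at -0.27. MRPS31, not called by its brighter probe set (-0.17 at both later times), fell by 0.40 and 0.38 by the other (limma adjusted p = 0.00796 and 0.00955).

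**Figure D4:**
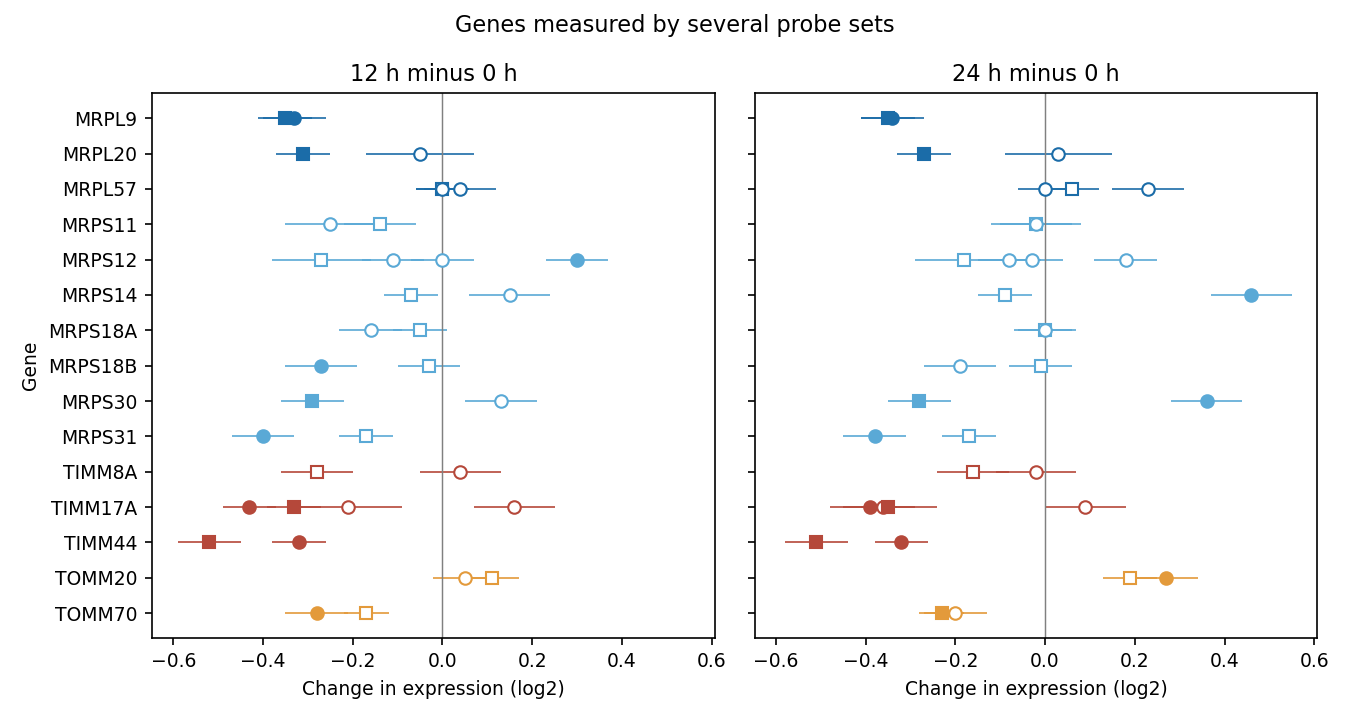
Change in expression (log2, horizontal axis) at 12 and 24 h of every probe set of the 15 member genes with more than 1. Squares are the probe sets that stand for the gene, circles the others, filled where limma's adjusted p over all probe sets was under 0.05, with bars of ± 1 SE; the 2 probe sets of MRPS30 lie on opposite sides of 0 at 24 h.

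Promoters of the members were read for sequence features that the choice of members had not used. RefSeq windows of 300 bases (GRCh38.p14; 250 before and 50 after the annotated start) were found for 60 of the 67 genes. Shown here are 4 genes that fell and TOMM20, which rose: TIMM44 at chr19:7943617-7943916 on the minus strand, TIMM10 at chr11:57530705-57531004 on the minus strand, MRPL58 at chr17:75012420-75012719 on the plus strand, MRPL46 at chr15:88467339-88467638 on the minus strand and TOMM20 at chr1:235128788-235129087 on the minus strand. Capitals mark matches on either strand to the motifs CCGGAAG (the core bound by ETS factors such as GABP), AAGATGGC (the core bound by YY1), GCATGCGC (a core bound by NRF1), CACGTG (the E-box bound by MYC) and ACGTG (a core of hypoxia response elements, contained in the E-box).
TIMM44: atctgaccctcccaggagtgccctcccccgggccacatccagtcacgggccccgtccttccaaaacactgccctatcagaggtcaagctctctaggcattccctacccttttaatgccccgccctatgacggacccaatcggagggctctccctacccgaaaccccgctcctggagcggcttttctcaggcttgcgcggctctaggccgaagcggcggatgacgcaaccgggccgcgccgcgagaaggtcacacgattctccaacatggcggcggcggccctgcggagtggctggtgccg
TIMM10: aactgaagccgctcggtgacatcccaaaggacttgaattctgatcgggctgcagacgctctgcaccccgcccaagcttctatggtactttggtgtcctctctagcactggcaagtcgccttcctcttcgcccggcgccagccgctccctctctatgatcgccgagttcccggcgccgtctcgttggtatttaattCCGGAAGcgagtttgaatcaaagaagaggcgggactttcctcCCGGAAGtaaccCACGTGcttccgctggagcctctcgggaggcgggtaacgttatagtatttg
MRPL58: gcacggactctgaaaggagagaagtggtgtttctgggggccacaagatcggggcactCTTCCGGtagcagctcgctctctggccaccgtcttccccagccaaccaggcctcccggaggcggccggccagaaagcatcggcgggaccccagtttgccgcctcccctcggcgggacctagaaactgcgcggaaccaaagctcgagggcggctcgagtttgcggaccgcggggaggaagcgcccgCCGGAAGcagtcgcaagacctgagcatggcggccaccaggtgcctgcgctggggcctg
MRPL46: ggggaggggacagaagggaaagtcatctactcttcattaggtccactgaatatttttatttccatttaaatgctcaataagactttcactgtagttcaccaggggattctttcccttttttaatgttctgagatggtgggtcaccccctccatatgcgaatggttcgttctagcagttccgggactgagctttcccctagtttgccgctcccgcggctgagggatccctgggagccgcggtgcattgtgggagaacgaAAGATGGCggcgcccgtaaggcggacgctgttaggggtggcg
TOMM20: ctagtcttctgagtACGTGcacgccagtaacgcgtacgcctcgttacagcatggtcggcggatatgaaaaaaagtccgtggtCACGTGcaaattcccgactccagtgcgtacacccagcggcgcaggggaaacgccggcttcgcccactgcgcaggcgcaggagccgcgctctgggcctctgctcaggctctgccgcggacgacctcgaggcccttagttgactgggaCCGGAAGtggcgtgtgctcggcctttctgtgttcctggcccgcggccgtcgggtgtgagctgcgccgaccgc

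The ETS core stood in 25 of the 60 windows, or 41.7%, beside 10.7% of all 27305 windows and 15.2% of the 9563 windows of genes measured here. The YY1 core stood in 13 windows, or 21.7%, beside 3.03% and 4.76%, and 12 of these 13 belonged to ribosome genes (12 of 45 ribosome against 1 of 15 import windows). The NRF1 core stood in 11.7%, beside 3.27% and 4.44%. The E-box stood in 10% (7.43% and 9.51%) and ACGTG in 30% (21.6% and 24.8%). Among 27 members that fell at some time the ETS core stood in 37% of the windows, the YY1 core in 22.2% and the NRF1 core in 3.7%, and among the 33 others in 45.5%, 21.2% and 18.2%. For NRF1 these shares are 1 and 6 windows, and no difference between the 27 and the 33 was tested. In the printed windows MRPL58 and TIMM10 each held 2 ETS cores, TOMM20 1 ETS core and MRPL46 1 YY1 core. TIMM10 and TOMM20 held an E-box, and TOMM20 also an ACGTG outside it. TIMM44, which fell most among import genes, held none of the 5 motifs. A match is a string of letters and not a shown binding site.

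Genes that work beside the members were read from lists of their partners, whose counts stand beside 11.3% of all genes lower at 12 h and 9.15% at 24 h, and 18% and 14.4% of the brighter set. For rises the shares at 12 and 24 h were 7.13% and 8.59% of all genes, and 10% and 12.9% of the brighter set. Of 12 partners in import 3 fell at 12 h, and 3 fell and 2 rose at 24 h: HSPA9, the matrix chaperone that pulls proteins through the TIM23 channel, fell by 0.33 and 0.36 (limma adjusted p = 0.00649 and 0.0041), the outer membrane protein gene MTX1 by 0.33 and 0.35, and DNAJC15, a co-chaperone of the motor, by 0.27 and 0.34. The nucleotide exchange factor gene GRPEL1 rose by 0.22 at 24 h and PMPCB, a subunit of the peptidase that removes leader sequences, by 0.20 (limma adjusted p = 0.0318 and 0.0411). Of 7 translation factors 2 fell at 12 and at 24 h, MTIF2 by 0.26 and 0.27 and GUF1 by 0.32 and 0.26, while the elongation factor gene TUFM was at -0.23 and -0.24 (adjusted p = 0.0574 and 0.0515). Of 13 genes for ribosome assembly and RNA modification 2 fell at 12 h, a share near the background, and 4 fell and 1 rose at 24 h. ERAL1, which chaperones the small ribosomal RNA, fell by 0.43 and 0.35, FASTKD2 by 0.24 and 0.37 and MTERF4 by 0.50 at 24 h, and TFB1M, a methyltransferase of that RNA, rose by 0.37 at 24 h (limma adjusted p = 0.0102).

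Of 11 regulators of mitochondrial biogenesis 1 fell at 6 h (1.22% of all genes), 3 at 12 h (11.3%) and 2 at 24 h (9.15%), where the brighter set had 18% and 14.4% at the later times; with 11 genes these counts are close to the background. MYC fell by 0.31 and then 0.40 at the first 2 times, and its change at 24 h was -0.16 (limma adjusted p = 0.0334, 0.00434 and 0.104). PPRC1, a coactivator of the PGC-1 family, fell by 0.40 (12 h) and 0.40 (24 h), and GABPB1, the partner of the ETS factor GABPA, by 0.34 and 0.28. NRF1 itself was at 0.04, 0.03 and -0.05, and the transcription factor gene TFAM at 0.10, -0.03 and 0.09, with no call. Of 9 mitochondrial chaperones and proteases LONP1, the matrix protease, rose by 0.43, 0.54 and 0.58 (limma adjusted p = 0.0283, 0.00434 and 0.00276), HTRA2 fell by 0.71 and 0.42 at 12 and 24 h, and the other 7 did not pass. Rises at 6, 12 and 24 h made up 2.32%, 7.13% and 8.59% of all genes, and 4.23%, 10% and 12.9% of the brighter set. The 3 measured ribosomal proteins without an MRP symbol, DAP3, GADD45GIP1 and PTCD3, were at -0.14, -0.08 and -0.02 at 12 h and were not called at any time by limma.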

How the data were processed

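Expression was measured in 8 RNA samples of SJRH30 cells on an Affymetrix array, after 1 round of amplification. The authors deposited 1 log2 value per probe set and array, and the submitters' processing notes name RMA as the method. Which software ran it is not given in the sources used here. Gene names came from GEO's 2016 annotation of the array: 19064 carried 1 symbol, 1043 several, and 2108 were not listed; 62 control probe sets were kept apart. A gene was represented by its brightest probe set with that symbol alone. A model with 1 mean per time was fitted over the 8 arrays (limma 3.58.1 and R 4.3.3; lmFit and eBayes with 4 residual and 3.68 prior degrees of freedom). Tests were two-sided, and p-values were adjusted by Benjamini-Hochberg within each comparison over all genes. The fit was checked on simulated data, with a minimum recovery required only for changes far larger than those of the members. How often changes of the members' size were recovered is not reported here. Precision is limited by having 2 arrays a time. No list or score over members was tested, and the members, lists, motifs and printed promoters were chosen with earlier results of these data known. Genes named were the called members with the largest changes (up to 8 ribosome and 6 import genes in each direction and comparison with 0 h, 5 between hypoxic times), 19 fixed members of which TIMM23 and TOMM7 were not analysed here, up to 4 called genes of each related list, and the others as examples chosen after their values were seen. Alternatives covered the probe set choice, variance trend, normalization, dim genes, arrays in the fit, replicate number as a block, and each array left out.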

Additional observations from a re-analysis of the deposited data

How the results depend on the processing

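For the named members recomputed under every setting, none called at 6, 12 or 24 h turned its direction there; MRPS30, whose probe sets oppose each other, was not among them. Repeated quantile normalization moved the medians at 12 h to -0.15 for ribosome and -0.16 for import genes, and left 3 import genes called there. With all probe sets of a gene averaged, or fitted one by one, the ribosome median at 24 h was -0.12 and -0.09, and in the second case its distance from the import median was 0.07; that fit called 3602 probe sets at 12 h and 3257 at 24 h. In the fit of only the 24 and 0 h arrays 12 ribosome genes were called. The F-test called 35 members with an intensity trend, 29 without the dimmest 25% of genes and 36 without the dimmer 50%. At 6 h ribosome genes called numbered 8, 4 and 7 under these 3 settings, and import genes 3 with the trend and 4 without the dimmer 50%. Import genes called by limma at 6 h numbered 0 with averaged or single probe sets, repeated quantile normalization or median centring. In the fit as reported, 6 import genes, or 37.5%, had an unadjusted limma p under 0.05, beside 19.2% of all genes and 28% of the brighter set. Calls over all genes became 1206, 776 and 1323 at 6 h under the trend and the filters of 25% and 50%, 754, 235 and 865 from 6 to 12 h, 404, 127 and 465 from 12 to 24 h, and 1039, 623 and 1037 from 6 to 24 h. From 6 to 12 h repeated quantile normalization gave 48. In fits of only the groups compared, limma called 0 from 6 to 12 h and 0 from 12 to 24 h (with all 8 arrays 2631 and 2079 genes had an unadjusted p under 0.05) and 184 from 6 to 24 h. The cause of these differences was not tested, beyond the smaller number of genes or arrays that a filter or a fit of 2 groups brings.

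Replicate numbers did not pair the samples: replicate differences of the times correlated between -0.11 and 0.09 over genes. With replicate number as a block, 272 genes were called at 6 h, 8 from 6 to 12 h, 0 from 12 to 24 h (limma) and 157 from 6 to 24 h, with 1 ribosome and 0 import genes at 6 h.

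Leaving out each array in turn, with the spread of its partner taken from the remaining groups, gave 90 to 508 genes at 6 h, 655 to 2507 at 12 h, 791 to 2169 at 24 h, 0 to 522 from 6 to 12 h, 0 to 139 from 12 to 24 h and 18 to 359 from 6 to 24 h. Ribosome genes called ranged over 0 to 2, 5 to 26 and 4 to 18 at 6, 12 and 24 h, import genes over 0 to 1, 1 to 10 and 3 to 5, and members called by the F-test over 1 to 19. Ribosome medians ranged over -0.10 to -0.08, -0.21 to -0.19 and -0.15 to -0.11, import medians over -0.10 to -0.07, -0.22 to -0.18 and -0.18 to -0.15, and their difference over -0.01 to 0.01, -0.02 to 0.04 and 0.00 to 0.04. The 4 members called at 12 h in every such fit were MRPL46, MRPL58, MRPL9 and TIMM44, and the 7 at 24 h were these with MRPL35, TIMM10 and TIMM17A.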
